A study of Gallus gallus with 16 samples.

Results

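The comparison described here is that of LPS-stimulated HD11 cells with and without procyanidin B1 (PB1). Its members are the transcripts with a mean normalized signal of 10 or more per 1000000 in the LPS group or in the LPS + PB1 group, and 4147 of the 6492 transcripts in the table met this rule. Of these, 3919 reached 10 in both groups, 132 in LPS only and 96 in LPS + PB1 only. SHISA2 lay just inside the limit, at 0.217 in LPS and 10.1 in LPS + PB1, and MBOAT1 lay just outside it, at 9.73 and 9.76. A gene symbol was found for 1191 members, so a named gene stands for the transcripts with a symbol only.

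Both groups held 4 RNA-seq libraries of HD11, a retrovirus-transformed chicken line described in the labels as macrophage-like. The LPS group received lipopolysaccharide at 100 ng/mL. By the methods of the study, the LPS + PB1 group received PB1 at 100 μg/mL for 12 h before the same LPS. The control group (CTR, PBS) and the PB1 group, of 4 libraries each, received no LPS and were used for 1 comparison below. The exposure to LPS was 6 h by the labels and 12 h by the methods of the study, which also give 3 replicates a group where the labels give 4. The protocol in the labels, shared by all groups, names another compound (SeMC) in the medium. All libraries came from a single cell line, and no source says that replicates were separate cultures, so each p-value measures the spread between libraries, which may be technical.

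Lipopolysaccharide of Gram-negative bacteria is sensed by macrophages through Toll-like receptor 4, whose adaptors switch on NF-κB, MAP kinases and interferon genes. Procyanidin B1 is a plant flavanol built from epicatechin and catechin. Such polyphenols are studied as antioxidants that act on the NFE2L2 pathway and as dampeners of macrophage cytokine production.

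Reads were recovered from the steps of the deposited signal. Summed over the 6492 transcripts of the table, they came to between 4240155 and 4414942 for each of the 8 libraries. The study reports a lower average number of reads per sample, mapped to more transcripts. The 10 most abundant transcripts held 15.03% to 17.97% of the signal. Libraries 1 and 2 of each group stood apart from libraries 3 and 4. The SD within these pairs was 0.144 to 0.178 on the log2 scale, while the pair means differed by 0.438 (root mean square over transcripts) in LPS and by 0.520 in LPS + PB1. Nothing in the labels says what the pairs are, so values within each pair are given where the pairs differed and for a number of other genes. The cell type label was set beside listed markers, as far as these could be matched by symbol. A symbol was found for 1697 of the 6492 transcripts. Listed markers without a match were not read, so this does not show that they were absent and cannot decide the cell type. Of 69 macrophage markers, 10 were matched and 4 were members, and 5 had at most 3 reads in all 8 libraries, among them CYBB, a subunit of the phagocyte oxidase, with 0 reads. The summed signal of the matched macrophage markers was 727 to 797 in LPS and 282 to 387 in LPS + PB1. Most of this sum came from the proteases CTSK, whose mean went from 420.4 to 131, and CTSC, from 218 to 53.1, while RAC2, a GTPase of blood cells on the same list, had means of 97.8 in LPS and 116 in LPS + PB1 and was not called. All 9 matched fibroblast markers, of 35 listed, were members, with a summed signal of 78111 to 108276 in LPS and 62727 to 85668 in LPS + PB1. Of 38 markers of epithelium, endothelium, muscle and blood, 12 were matched and haemoglobin alpha (HBA1) was the only member, with 0.918, 0.217, 74.9 and 0.206 in LPS and 0.224, 73.9, 302 and 91.2 in LPS + PB1; it was not called. In bulk RNA, fewer cells of a type and less RNA per cell cannot be told apart. The part of cell composition in the results below was not tested.

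Over all 4546 transcripts tested with limma, 17.7% were called in LPS + PB1 against LPS. A call needed a change of 1.5-fold or more together with a Benjamini-Hochberg adjusted p no higher than 0.05. By direction, 7.63% were higher and 10.1% lower. Among the 4147 members, 302 were higher and 398 lower after PB1. Of the 3919 members present in both groups, 240 rose and 308 fell, which is 14.0%. The members that reached 10 in a single group had to differ, and 62 of 96 were called higher and 90 of 132 lower. A change of at least 4-fold was seen in 15 called members that rose and 33 that fell among those present in both groups. The median log2 difference over all members was 0.01. The 4 LPS and 4 LPS + PB1 libraries did not overlap in 1466 members, against 34.8% of all tested transcripts, and in 676 of the 700 called. When the mean of each replicate pair was taken as 1 sample (2 samples a group), 130 members were called, 41 higher and 89 lower. That fit has no term for the shift between pairs that the groups share. Its lower count therefore cannot show whether the 4 libraries of a group are independent. With the replicate pair as a term, 803 members were called, 344 higher and 459 lower. The fit with that term takes the libraries of a pair as independent. Of the genes described below, ID3, ID4, CCN2, CCN3, UCHL1, ADH1C, LSAMP, MMP10, CTSC, CTSK, FZD7 and DEPTOR were still called on the pair means. HIF1A, DCN, COL3A1, TIMP3, CLU, C3, APOD, ALDH1A3, SLC40A1, SOX9, TLR3, CKB, UNC5B, EDNRA, EPHB1 and ACE were among those that were not, with limma adjusted p of 0.0514 (TLR3) to 0.202 (HIF1A).

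**Figure D1:**
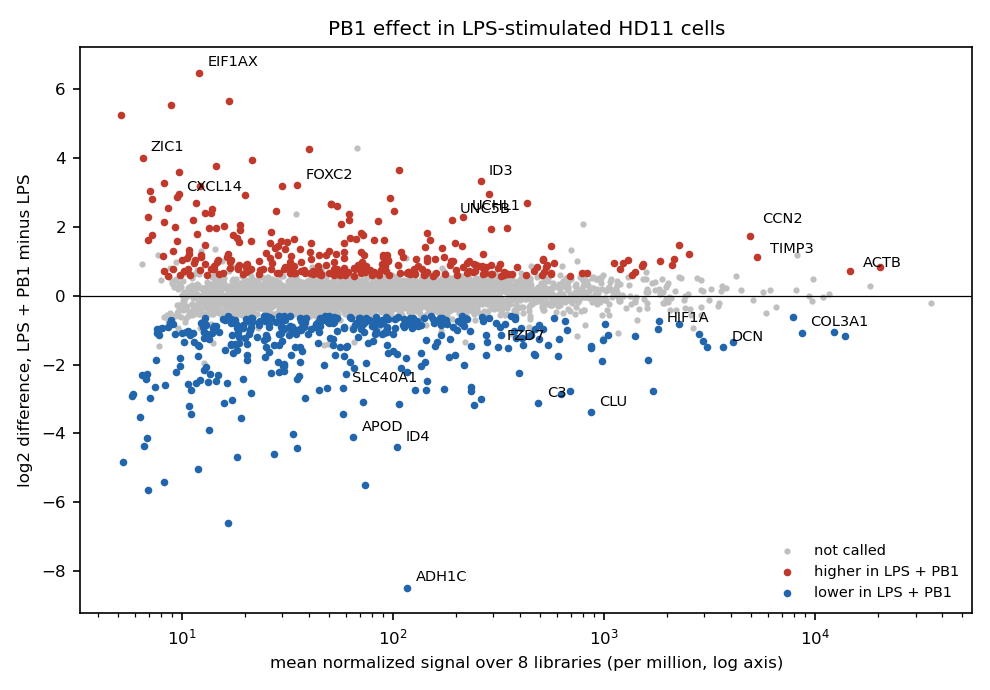
Mean normalized signal of the 8 libraries (reads per 1000000, log axis) against the log2 difference between LPS + PB1 and LPS for the 4147 members. Each point is a transcript, with the 302 called higher in red, the 398 called lower in blue and the rest in grey; the largest named fall is ADH1C at -8.48.

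PB1 changed the inhibitors of DNA binding (ID proteins), which block basic helix-loop-helix transcription factors and are classical targets of BMP signalling, in opposite directions. ID3 (chromosome 23, 2577964 to 2579597 in GRCg7b) had a normalized signal of 37.6, 39.2, 55.99 and 60.6 in LPS replicates 1 to 4 and 495, 448, 503 and 452 in LPS + PB1 replicates 1 to 4. All 4 LPS + PB1 libraries lay far above all 4 LPS libraries. The log2 difference was 3.32 ± 0.16 (SE), limma adjusted p = 1.79e-06, a 10.02-fold rise, and was 3.62 in replicates 1 and 2 and 3.03 in replicates 3 and 4. ID4 (chromosome 2, 59459266 to 59461910) went the other way, with 163, 199, 205 and 238 in LPS and 9.78, 7.36, 11.8 and 9.62 in LPS + PB1. No LPS + PB1 library came near the LPS range, and the log2 difference was -4.39 ± 0.16 (SE), limma adjusted p = 4.78e-07. ID2, with 503 ± 62.2 in LPS and 246 ± 16.7 in LPS + PB1 (SD, n = 4), also fell, by a log2 difference of -1.03 ± 0.10 (SE).

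Of the 18 members among 101 listed developmental transcription factors, 6 were higher, 3 lower and 9 not called, with a median log2 difference of -0.02 beside 0.01 for all members. The called share was 50%, beside 17.7% of all tested transcripts and 14.1% of members with a symbol. That share includes members that reached the membership limit in a single group only, which had to differ. Of the 14 listed members present in both groups, 5 were called, beside 14% of all members present in both groups. ZIC1, a zinc finger factor of neural development, was 0.689, 1.73, 0.434 and 0.619 in LPS and 11.96, 10.8, 13.5 and 12.4 in LPS + PB1, and rose by 4.01 ± 0.40 (SE) log2 units. The forkhead factor FOXC2 rose by 3.21 ± 0.16 (SE) and the homeobox factor DLX3 by 2.21 ± 0.30 (SE) log2 units, and FOXD1 rose by 0.63 ± 0.14 (SE). FOXL2, an ovarian forkhead factor, fell by a log2 difference of -1.19 ± 0.14 (SE). SOX9, which drives chondrocyte genes, was 26.9, 26.5, 30.2 and 35.1 in LPS and 74.4, 66.3, 116 and 95.5 in LPS + PB1, and the groups did not overlap. Its log2 difference was 1.40 in replicates 1 and 2 and 1.70 in replicates 3 and 4. Among 6 HOX members, only HOXA11 was called, at 7.34 to 30.3 on average, with a log2 difference of 2.05 ± 0.21 (SE), limma adjusted p = 1.27e-04. HOXC10 had a log2 difference of 0.46 ± 0.10 (SE), under the fold limit, although its groups did not overlap. SNAI1, a repressor of epithelial genes, was not called, at -0.12 ± 0.24 (SE), but its difference was 0.24 in replicates 1 and 2 and -0.48 in replicates 3 and 4 (limma adjusted p for the difference between pairs = 2.56e-04).

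Of 12 members of the list of secreted CCN proteins and regulators of BMP and TGF-β signalling, 5 rose and 1 fell, with a median log2 difference of 0.23. CCN2 (chromosome 3, 56836500 to 56839471), a matricellular protein induced by TGF-β and mechanical load, had a signal of 2327, 2681, 1999 and 2058 in LPS replicates 1 to 4 and 8093, 7526, 7598 and 7022 in LPS + PB1 replicates 1 to 4. The lowest LPS + PB1 library was more than double any LPS library, and the log2 difference was 1.75 ± 0.12 (SE), limma adjusted p = 1.34e-05. CCN3, a further family member, was 17.6, 20.5, 24.3 and 26.6 in LPS and 106, 119, 84.7 and 100.2 in LPS + PB1, a 4.64-fold rise. The 3 other genes that rose all restrain BMP or TGF-β signalling. The pseudoreceptor BAMBI rose by 1.37 ± 0.14 (SE), the inhibitory SMAD6 by 1.18 ± 0.19 (SE) and the BMP antagonist NOG by 0.92 ± 0.23 (SE) log2 units. The SMAD6 signal is that of a transcript of the gene recorded as noncoding. WISP1, also a CCN protein, fell from a mean of 124 to 58.96. FSTL1, the most abundant member of the list that was not called, was 11088 ± 485 in LPS and 10714 ± 447 in LPS + PB1 (SD, n = 4). In the list of WNT genes, 1 of 8 members was called. The receptor FZD7 was 514, 529, 421 and 401 in LPS and 176, 179, 158 and 154 in LPS + PB1, and its log2 difference of -1.48 ± 0.11 (SE) was similar within the pairs, -1.56 in replicates 1 and 2 and -1.40 in replicates 3 and 4. The WNT antagonist SFRP1 had a log2 difference of -0.56 ± 0.17 (SE), under the fold limit. It was -0.22 in replicates 1 and 2 and -0.91 in replicates 3 and 4 (limma adjusted p for the difference between pairs = 2.55e-04). SFRP1 was called within replicates 3 and 4 only.

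**Figure D2:**
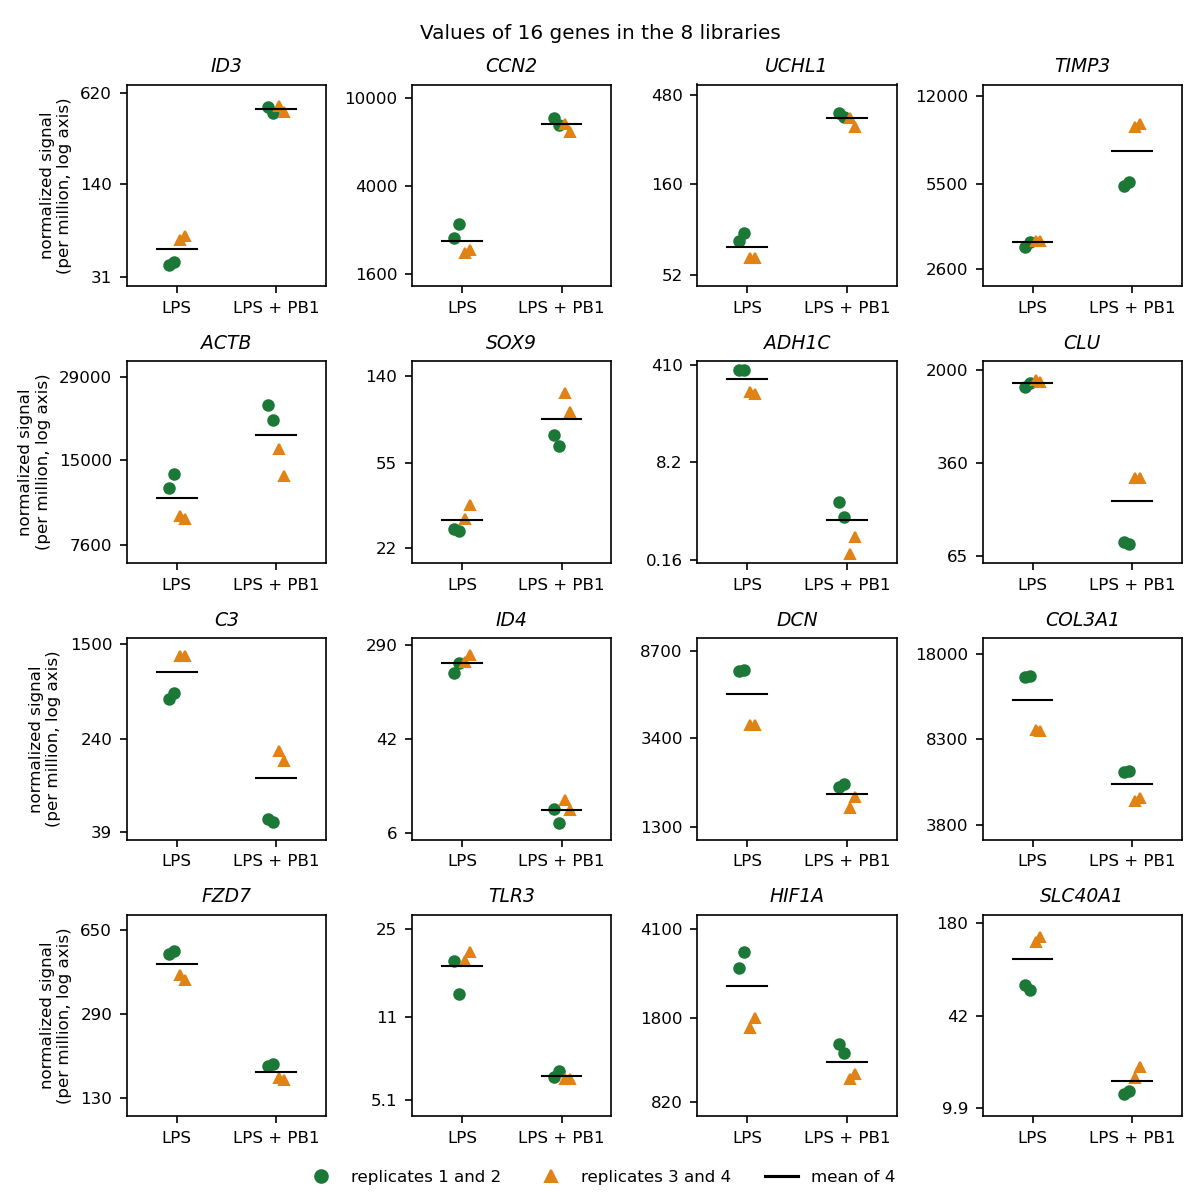
Normalized signal (reads per 1000000, log axis) of 16 genes in each of the 4 LPS and 4 LPS + PB1 libraries. Circles are replicates 1 and 2, triangles replicates 3 and 4 and bars the mean of 4; the groups overlap in ACTB alone among these genes, and the pairs stand apart in genes such as DCN, COL3A1, C3 and CLU.

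Matrix genes were among the most abundant transcripts, and several fell after PB1. DCN, decorin, a proteoglycan that binds collagen fibrils, was 7042, 7089.6, 3905 and 3942 in LPS replicates 1 to 4 and 2005, 2073, 1610.4 and 1796 in LPS + PB1 replicates 1 to 4. The LPS + PB1 libraries all lay below the lowest LPS library, though LPS replicates 3 and 4 were nearer to them than replicates 1 and 2. Its log2 difference was -1.50 ± 0.22 (SE), limma adjusted p = 0.00114, and -1.79 in replicates 1 and 2 and -1.21 in replicates 3 and 4. COL3A1, which encodes the type III collagen chain, was 14627, 14685, 9027 and 8907 in LPS and 6169.7, 6236, 4709 and 4873 in LPS + PB1. COL6A2, of type VI collagen, fell by a log2 difference of -1.04 ± 0.19 (SE), and MFGE8, a secreted bridge for the uptake of dying cells, by -1.12 ± 0.15 (SE). COL1A2, the highest named transcript, was not called, with 37744 ± 1581 in LPS and 33649 ± 8549.9 in LPS + PB1 (SD, n = 4). Its difference was 0.08 in replicates 1 and 2 and -0.48 in replicates 3 and 4 (limma adjusted p for the difference between pairs = 0.00306). Of the 13 members among 100 listed collagen and matrix genes, 4 were lower and 1 (SPON1, a secreted adhesion protein, 0.60 ± 0.20 (SE)) higher, with a median log2 difference of -0.20.

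In the list of matrix proteases and their inhibitors, 3 proteases fell and the inhibitor TIMP3 rose. MMP10, a stromelysin, was 210.0, 200.2, 247 and 238 in LPS and 63.4, 67.7, 53.1 and 53.6 in LPS + PB1, with a log2 difference of -1.92 ± 0.11 (SE), limma adjusted p = 3.79e-06. The lysosomal cysteine proteases CTSK and CTSC, which are also on the macrophage list, fell by log2 differences of -1.71 ± 0.16 (SE) and -2.04 ± 0.18 (SE). CTSC was 263, 249.7, 172 and 188 in LPS and 59.96, 64.9, 42.1 and 45.3 in LPS + PB1, and its difference was -2.04 in replicates 1 and 2 and -2.04 in replicates 3 and 4. TIMP3, a matrix-bound inhibitor of metalloproteinases, was 3164, 3318, 3346 and 3349 in LPS and 5407, 5607, 9173 and 9417 in LPS + PB1. The 4 LPS libraries agreed closely, whereas LPS + PB1 replicates 3 and 4 were well above replicates 1 and 2, and the log2 difference was 0.77 in replicates 1 and 2 and 1.47 in replicates 3 and 4 (limma adjusted p for the difference between pairs = 1.29e-04). TIMP2, a relative of it, was not called, at 0.16 ± 0.11 (SE). In all, 2 of 9 members of this list rose (the other being the crosslinking enzyme LOXL4, 0.59 ± 0.09 (SE)) and 3 fell, with a median of -0.07.

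Of 12 adhesion members, 2 were higher and 4 lower, with a median log2 difference of -0.24. The integrin subunits ITGB3 and ITGA3 fell by log2 differences of -1.72 ± 0.15 (SE) and -1.51 ± 0.32 (SE), and the gap junction protein GJA1 fell by one of -1.15 ± 0.25 (SE). ITGA3 was 334, 329, 766 and 677 in LPS and 135, 131, 233 and 210.4 in LPS + PB1, so both groups were higher in replicates 3 and 4. ITGB1, the shared β1 subunit, had 5494 ± 1002 in LPS and 5898 ± 1243 in LPS + PB1 (SD, n = 4) and was not called. The cell adhesion proteins ALCAM and MCAM rose by 0.72 ± 0.14 (SE) and 0.97 ± 0.24 (SE), and the cadherin CDH4 fell by a log2 difference of -1.04 ± 0.30 (SE). LSAMP, an adhesion protein of limbic neurons outside this list, was 224, 215, 212 and 233 in LPS and 34.3, 26.8, 39.9 and 32.2 in LPS + PB1, with a log2 difference of -2.75 ± 0.12 (SE), limma adjusted p = 9.48e-07.

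Of 51 listed genes of retinoid, alcohol and aldehyde metabolism, 11 were matched and 4 were members. All 4 were called, 3 lower and 1 higher, beside 14.1% of members with a symbol. Their median log2 difference was -1.79. Of these, 1 (ADH1C) reached 10 in LPS only and so had to differ, and the 3 present in both groups were all called. ADH1C (chromosome 4, 59497424 to 59513746), an alcohol dehydrogenase, was 335, 334, 139.6 and 128 in LPS replicates 1 to 4 and 1.68, 0.892, 0.201 and 0.403 in LPS + PB1 replicates 1 to 4. It was thus close to the detection limit in each LPS + PB1 library, and its log2 difference of -8.48 ± 0.64 (SE), limma adjusted p = 2.14e-05, was the largest fall of any named gene. ALDH1A3, which makes retinoic acid from retinal, was 597, 614, 318 and 329.7 in LPS and 89.1, 80.2, 37.2 and 36.5 in LPS + PB1. Its level in replicates 3 and 4 was lower than in replicates 1 and 2 in both groups, and the difference was -2.84 in replicates 1 and 2 and -3.13 in replicates 3 and 4. ADH4 fell by a log2 difference of -0.60 ± 0.06 (SE). ALDH2, the mitochondrial enzyme that clears acetaldehyde, rose by 0.92 ± 0.09 (SE).

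Some secreted proteins were among the largest falls. CLU, clusterin, an extracellular chaperone, was 1443, 1570.5, 1649 and 1599 in LPS replicates 1 to 4 and 84.2, 80.6, 274 and 273 in LPS + PB1 replicates 1 to 4. The LPS libraries spanned a narrow range, and the LPS + PB1 libraries split by pair. The log2 difference was -3.38 ± 0.41 (SE), limma adjusted p = 3.47e-04, and -4.19 in replicates 1 and 2 and -2.57 in replicates 3 and 4 (limma adjusted p for the difference between pairs = 1.42e-07). C3, the central component of complement, was 515, 583, 1187 and 1190.1 in LPS and 50.9, 48.01, 189 and 157 in LPS + PB1, a fall of 8.75-fold in the mean of the log values. Both groups had higher C3 in replicates 3 and 4. APOD, a lipocalin that carries small lipids, showed the same split as CLU, with log2 differences of -4.96 in replicates 1 and 2 and -3.27 in replicates 3 and 4. PPARG, a nuclear receptor of lipid metabolism, was 36.6, 39.97, 31.3 and 30.5 in LPS and 15.9, 17.3, 14.7 and 14.6 in LPS + PB1 and fell by a log2 difference of -1.14 ± 0.12 (SE). Of 7 members of the cholesterol and lipid list, APOD and PPARG were the 2 called. SLC40A1, ferroportin, which exports iron from macrophages, was 67.9, 62.4, 133 and 144 in LPS and 12.2, 12.9, 15.8 and 18.9 in LPS + PB1, and its log2 difference was -2.69 ± 0.29 (SE), limma adjusted p = 1.82e-04. FTH1, the ferritin heavy chain, was not called, with 4838, 5376, 9350.0 and 9046 in LPS and 3873, 3626, 8434 and 7718 in LPS + PB1. It was higher in replicates 3 and 4 of both groups. DEPTOR, an inhibitor of mTOR, fell by a log2 difference of -2.22 ± 0.09 (SE), and ACE, the angiotensin-converting enzyme, by -2.11 ± 0.32 (SE).

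**Figure D3:**
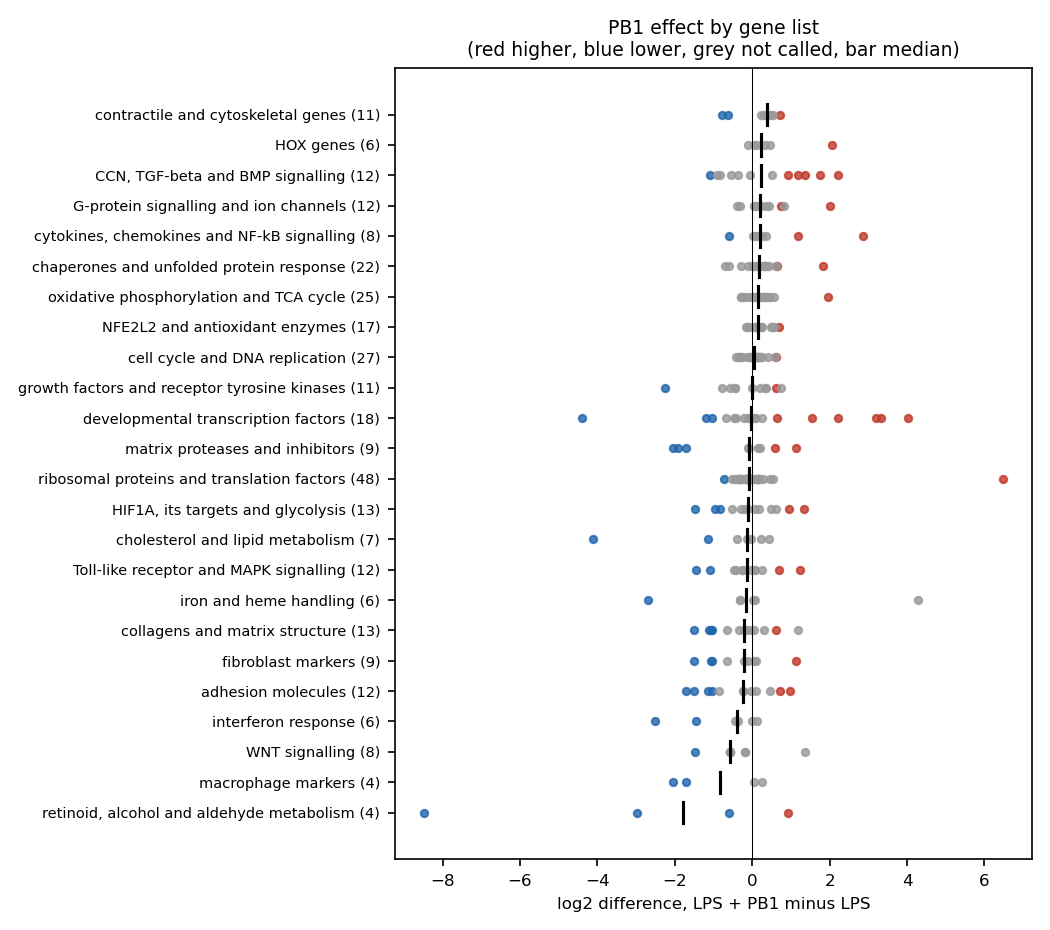
Log2 difference between LPS + PB1 and LPS for the members of each gene list with at least 4 members, with the number of members after the name. Red points were called higher, blue lower and grey not called, and the black bar is the list median, which ran from -1.79 in the retinoid list to 0.38 in the contractile list.

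Of 99 listed cytokine, chemokine and NF-κB genes, 16 were matched and 8 were members, of which 2 were higher, 1 lower and 5 not called, with a median log2 difference of 0.19. NOS2, the inducible nitric oxide synthase, had at most 2 reads in any of the 8 libraries, and so did IL12B. CCL4 had 0. IL6, the fever cytokine, was 291, 274, 238 and 265 in LPS and 356, 398, 304 and 313 in LPS + PB1. Its groups did not overlap, but the log2 difference of 0.36 ± 0.10 (SE), limma adjusted p = 0.0283, was under the fold limit. The control libraries averaged 272. CXCL14, a chemokine of epithelia and fibroblasts, rose by 2.87 ± 0.60 (SE) log2 units from low levels, 1.15, 0.975, 4.99 and 2.78 in LPS and 8.05, 9.21, 26.3 and 22.9 in LPS + PB1. NFKBIA, the NF-κB inhibitor, was 48.4 ± 4.42 in LPS and 50.6 ± 5.08 in LPS + PB1 (SD, n = 4) and was not called. NFKBIZ, a nuclear NF-κB cofactor, had a log2 difference of -0.59 ± 0.13 (SE), limma adjusted p = 0.00969, just past the fold limit, and was -0.31 in replicates 1 and 2 and -0.86 in replicates 3 and 4.

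Of 12 Toll-like receptor and MAP kinase members, 2 were higher, 2 lower and 8 not called, with a median log2 difference of -0.14. TLR3, the receptor for double-stranded RNA, was 18.5, 13.7, 18.6 and 20.1 in LPS and 6.31, 6.69, 6.24 and 6.22 in LPS + PB1. Its LPS + PB1 libraries agreed within a narrow range below all LPS libraries, and its log2 difference was -1.46 ± 0.15 (SE), limma adjusted p = 1.29e-04. DUSP1, a phosphatase that switches off MAP kinases, was 93.1, 117, 232 and 225 in LPS and 302, 297, 452 and 418 in LPS + PB1. LPS replicates 1 and 2 were lower than replicates 3 and 4, and the difference was 1.52 in replicates 1 and 2 and 0.93 in replicates 3 and 4. The AP-1 subunit JUN had 316, 366, 381 and 353 in LPS and 336, 317, 429.7 and 414 in LPS + PB1 and was not called, nor was the kinase MAPK3, at 0.08 ± 0.07 (SE). EGR1, an immediate-early factor, was 108, 121, 626 and 591 in LPS and 186, 173, 276 and 270.1 in LPS + PB1. Its difference changed sign between the pairs, 0.65 in replicates 1 and 2 and -1.16 in replicates 3 and 4 (limma adjusted p for the difference between pairs = 1.68e-07). TLR3 was 1 of 2 genes called, both lower, among 6 members of the interferon list, whose median log2 difference was -0.40. Both called genes reached 10 in LPS only and so had to differ. Of the 4 list members present in both groups, 0 were called. The list members TRIM25 and IFIT5 were not called, at -0.45 ± 0.17 (SE) and 0.13 ± 0.14 (SE).

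NFE2L2, the antioxidant regulator, was 347, 346, 314 and 319 in LPS and 359, 338, 267 and 272 in LPS + PB1, with a log2 difference of -0.11 ± 0.11 (SE). Of 17 members of its list, MAFK, a small MAF partner of NFE2L2, was the only one called, at 0.70 ± 0.12 (SE), and the median log2 difference was 0.16. TXNRD1, a thioredoxin reductase and NFE2L2 target, was 1514, 1492, 2210.5 and 2208 in LPS and 2887, 2893, 2461 and 2519 in LPS + PB1. Both groups were separate in all libraries, but the log2 difference was 0.94 in replicates 1 and 2 and 0.17 in replicates 3 and 4 (limma adjusted p for the difference between pairs = 4.15e-05), and the pooled value of 0.56 ± 0.16 (SE) missed the fold limit. HMOX1, heme oxygenase, had a log2 difference of 0.07 ± 0.25 (SE), SOD1 of -0.14 ± 0.08 (SE) and catalase (CAT) of 0.07 ± 0.12 (SE), and none of these was called.

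HIF1A, the oxygen-regulated factor, was 2875, 3326, 1643 and 1798 in LPS replicates 1 to 4 and 1414, 1295, 1015 and 1067 in LPS + PB1 replicates 1 to 4. All LPS + PB1 libraries lay below all LPS libraries. The call was lost on the pair means and kept with the replicate pair as a term. The log2 difference was -0.96 ± 0.23 (SE), limma adjusted p = 0.0131, and -1.19 in replicates 1 and 2 and -0.72 in replicates 3 and 4 (limma adjusted p for the difference between pairs = 0.0201). EPAS1, its paralog, rose by 0.96 ± 0.15 (SE) and was 599.6, 651, 908 and 908 in LPS and 1421, 1320.3, 1639 and 1498 in LPS + PB1. The glucose transporter SLC2A1, a target of HIF1A, was 278, 298, 185 and 175 in LPS and 105, 89.8, 72.9 and 66.7 in LPS + PB1, and BHLHE40, also a target, fell by a log2 difference of -0.84 ± 0.15 (SE). Among 13 members of the HIF1A and glycolysis list, 2 rose, 3 fell and 8 were not called. The glycolytic enzyme ENO1 was not called, at 0.48 ± 0.16 (SE).

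The called share was 17.7% of all tested transcripts and 14.1% of members with a symbol, to which all list members belong. Among list members it was 3.70% for cell cycle, 4.17% for ribosomal and translation, 4% for respiratory chain and 9.09% for chaperone genes. It was 27.3% for cytoskeleton, 16.7% for G-protein and channel and 18.2% for growth factor genes. Of the lists above, the developmental, CCN and adhesion lists had 50% and the protease list 55.6%. The matrix and HIF1A lists had 38.5%, the cytokine list 37.5% and the Toll-like receptor and interferon lists 33.3%. The lipid list had 28.6%, the HOX and iron lists 16.7%, the WNT list 12.5%, the NFE2L2 list 5.88% and the retinoid list 100%. These shares, and the list medians, count members that reached 10 in a single group, which had to differ. Of all members present in both groups, 14% were called. By list, this was 0 of 4 for interferon, 0 of 5 for HOX and 2 of 10 for Toll-like receptor genes. Cytokine, lipid and WNT genes had 1 of 6 each. It was 5 of 14 for developmental, 5 of 11 each for CCN and adhesion and 5 of 9 for protease genes. Matrix genes had 5 of 13, HIF1A genes 4 of 12 and retinoid genes 3 of 3. Of 27 cell cycle members, 1 was called (CDK6, 0.62 ± 0.07 (SE)) and the median log2 difference was 0.05, while PCNA, the replication clamp, had 0.05 ± 0.60 (SE) and the topoisomerase TOP2A 0.02 ± 0.11 (SE). Of 48 ribosomal and translation members, the initiation factor EIF1AX rose and RPS4Y1 fell, with a median of -0.09. RPS4Y1 was 2139, 2455, 2303 and 2218 in LPS and 1389, 1271, 1484 and 1339.8 in LPS + PB1. EIF1AX was at the floor of 3 reads or fewer in each LPS library and was 24.2, 23.6, 19.4 and 28.8 in LPS + PB1, at least 25.96-fold higher than a floor of 3 reads per library. It was also present without LPS, at 21.1 in CTR and 23.2 in PB1. Of 25 respiratory chain and energy members, the creatine kinase CKB rose and was 112, 125, 151 and 147 in LPS and 379, 334, 865 and 671 in LPS + PB1, and the list median was 0.16. ATP5B, of the ATP synthase, had 640.1, 691, 668 and 616 in LPS and 1000.0, 961, 958 and 926 in LPS + PB1, and its log2 difference of 0.56 ± 0.07 (SE) was under the fold limit. Of 22 chaperone members, HSPA2 rose by 1.84 ± 0.13 (SE) and HYOU1 by 0.63 ± 0.08 (SE). In the cytoskeleton list, 1 of 11 members rose and 2 fell. Cytoplasmic actin (ACTB) was 12029, 13444, 9575 and 9356 in LPS and 23286, 20638, 16395 and 13196 in LPS + PB1, and 1 LPS library, replicate 2, lay above the lowest LPS + PB1 library. The actin-severing CFL2 fell by a log2 difference of -0.79 ± 0.16 (SE) and ANXA2, a membrane-binding annexin, by -0.63 ± 0.11 (SE). UCHL1, a neuronal deubiquitinase, was 78.8, 86.9, 64.3 and 63.8 in LPS and 387, 367, 362 and 324 in LPS + PB1, and UNC5B, a netrin receptor, was 60.9, 59.2, 68.1 and 69.5 in LPS and 219, 201, 461 and 384 in LPS + PB1. EDNRA, an endothelin receptor, and PTGER2, a receptor of prostaglandin E, were the 2 called of 12 G-protein and channel members, and rose by 2.01 ± 0.19 (SE) and 0.74 ± 0.13 (SE). Of 11 growth factor members, the ephrin receptor EPHB1 fell by a log2 difference of -2.26 ± 0.31 (SE) and SPRY2, an inhibitor of receptor kinases, rose by 0.61 ± 0.15 (SE).

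Some calls were lost when 1 library was left out. Over the 8 fits that each left out 1 library, the log2 difference of ACTB ran from 0.59 to 0.86, with limma adjusted p from 0.0155 to 0.0884, and it was called in 2 of the 8. JAK3, a cytokine receptor kinase, was 8.31, 4.22, 8.94 and 7.78 in LPS and 26.7, 21.9, 12.5 and 8.99 in LPS + PB1, and its log2 difference then ran from 0.94 to 1.46 (limma adjusted p 0.0146 to 0.0940). That of PDK4, a mitochondrial kinase, ran from 1.06 to 1.61 (limma adjusted p 0.0219 to 0.101), and that of MAF, a bZIP factor, from -1.34 to -0.86 (limma adjusted p 0.0196 to 0.0988). NFKBIZ ran from -0.67 to -0.50, SPRY2 from 0.51 to 0.72 and CDK6 from 0.57 to 0.65, with limma adjusted p of at most 0.0299, 0.0360 and 0.00159, and lost the call through the fold limit. ACTB was lost without LPS replicate 1, 3 or 4 or LPS + PB1 replicate 1, 2 or 3, and JAK3 without any LPS replicate or LPS + PB1 replicate 1 or 2. PDK4 was lost without LPS replicate 1, 2 or 3 or LPS + PB1 replicate 3 or 4, and MAF without LPS replicate 1, 2 or 4 or LPS + PB1 replicate 1 or 2. NFKBIZ was lost without LPS replicate 3 or 4 or LPS + PB1 replicate 3 or 4, SPRY2 without LPS replicate 1 or 2 or LPS + PB1 replicate 1 or 3, and CDK6 without LPS replicate 3. The replicate pairs also differed in 3 of these genes, JAK3 with 2.03 in replicates 1 and 2 and 0.34 in replicates 3 and 4, MAF with -1.96 in replicates 1 and 2 and -0.24 in replicates 3 and 4 and SPRY2 with 0.91 in replicates 1 and 2 and 0.31 in replicates 3 and 4 (limma adjusted p for the difference between pairs 0.0159, 8.95e-04 and 0.0407).

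The PB1 effect was then estimated within each replicate pair. Of the 4546 tested, 22.2% were called within replicates 1 and 2, 21.7% within replicates 3 and 4 and 15.3% within both. Among members these counts were 867 and 848, and 591 were called in both pairs with the same sign and 8 with opposite signs. Of the 700 members called over all 8 libraries, 551 were called in both pairs as well, which is no separate evidence since the pooled value averages the pairs. Across the 4147 members, which are not independent replicates, the effects in the pairs had a Pearson r of 0.88, and across the 3919 present in both groups 0.82. The 2 estimates share no library. A test of the difference itself, with no fold limit, passed for 7.5% of those tested and for 331 members. Of these 331, 125 were also called over all libraries. Among called genes described above, the log2 difference was larger in replicates 3 and 4 for UNC5B (1.80 and 2.61), CKB (1.59 and 2.35) and SMAD6 (0.92 and 1.44), with the value in replicates 1 and 2 given first. It was larger in replicates 1 and 2 for ID3 (3.62 and 3.03), CCN3 (2.57 and 1.86), EDNRA (2.50 and 1.53) and DUSP1 (1.52 and 0.93). The fall was larger in replicates 1 and 2 for CTSK (-2.05 and -1.37), EPHB1 (-2.82 and -1.70), C3 (-3.47 and -2.79), DCN (-1.79 and -1.21) and COL3A1 (-1.24 and -0.90), and larger in replicates 3 and 4 for MMP10 (-1.65 and -2.19), GJA1 (-0.79 and -1.51) and SLC40A1 (-2.37 and -3.00). In each of these the limma adjusted p for the difference between pairs was at most 0.0496, and both pairs had the same sign. All p-values for a difference between pairs, and all calls within a pair, rest on the spread between libraries of the same pair. That spread may be technical.

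**Figure D4:**
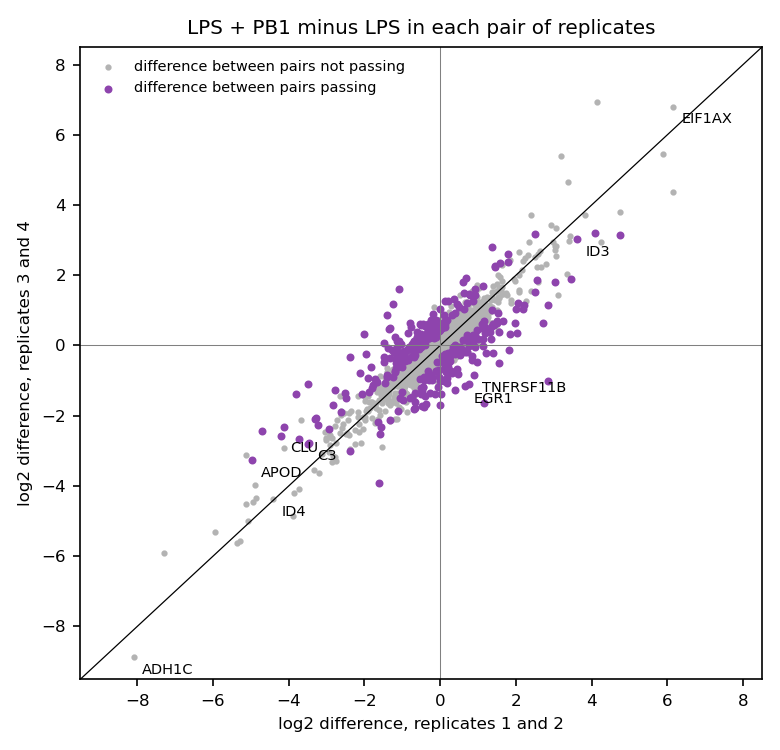
Log2 difference between LPS + PB1 and LPS in replicates 3 and 4 against that in replicates 1 and 2 for the 4147 members, with the line of equality. Purple points are the 331 members whose difference between the pairs passed at an adjusted p of 0.05; TNFRSF11B and EGR1 lie in the lower right, and ADH1C, ID4 and EIF1AX lie near the line.

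The named gene with the plainest disagreement was TNFRSF11B, the decoy receptor osteoprotegerin, with 580.1, 568, 539.6 and 525 in LPS and 1037, 1094, 275 and 317 in LPS + PB1. The LPS libraries were alike, while LPS + PB1 replicates 1 and 2 were above them and replicates 3 and 4 below them. Its log2 difference was 0.89 in replicates 1 and 2 and -0.85 in replicates 3 and 4 (limma adjusted p for the difference between pairs = 1.42e-07), so the pooled value of 0.02 ± 0.44 (SE) describes neither pair.

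Since PB1 was also given without LPS, its effect in stimulated cells was compared with that in unstimulated cells, where 20.8% of the 4485 transcripts tested were called in PB1 against CTR. The 2 comparisons share no library. An interaction test over the 16 libraries had no fold limit, unlike the calls, so its share cannot be set directly beside theirs. By this test the effects differed in 44.5% of 4651 transcripts, and in 1844 members, of which 563 were called in stimulated cells. Of the 700 called members, 125 were also called in PB1 against CTR in the same direction and 185 in the opposite direction. Across 4098 members the effects had a Pearson r of -0.04. ID3, CCN2, UCHL1 and SOX9 rose in stimulated cells and were lower with PB1 in unstimulated cells, where their log2 differences were -2.40, -3.07, -2.41 and -2.74. The limma adjusted p of the interaction was 2.06e-12, 8.04e-12, 4.47e-11 and 2.39e-09 in that order. CCN2 averaged 3970.4 in CTR, 469 in PB1, 2266 in LPS and 7559.8 in LPS + PB1. BAMBI and EDNRA followed the same order, with -1.92 and -3.50 in unstimulated cells. CTSC, ACE, ITGB3 and GJA1 fell in stimulated cells and had positive differences without LPS, at 1.04, 1.28, 1.22 and 1.58 (limma adjusted p of the interaction 6.76e-08, 7.01e-07, 5.01e-08 and 1.60e-06). CCN3 and CKB rose in both settings, by 2.21 and 1.97 with LPS and 1.68 and 1.30 without. The interaction passed for CCN3 (limma adjusted p = 0.0378) and not for CKB (limma adjusted p = 0.106). HIF1A was lower in both, at -0.96 and -1.05, and the interaction did not pass (limma adjusted p = 0.8). ID4, LSAMP and MMP10 were lower with PB1 in both settings, at -4.39, -2.75 and -1.92 with LPS and -3.39, -5.24 and -4.18 without. Unlike that of HIF1A, their effects differed in size between the settings (limma adjusted p of the interaction 0.00549, 4.62e-06 and 3.16e-05).

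**Figure D5:**
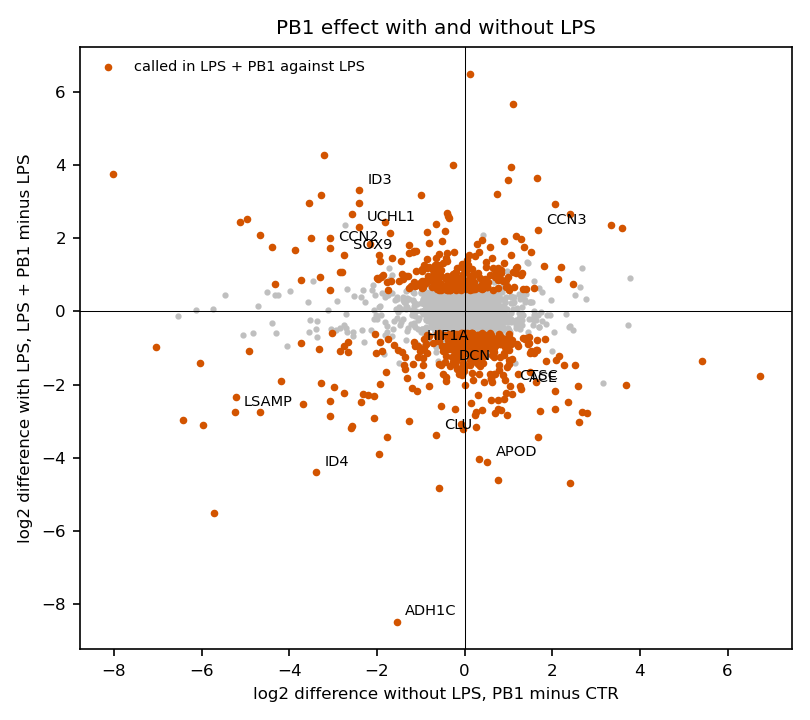
Log2 difference between LPS + PB1 and LPS against that between PB1 and CTR for the 4098 members tested in both. Orange points are members called in LPS + PB1 against LPS; they lie on all sides, with ID3, UCHL1, CCN2 and SOX9 in the upper left and HIF1A, ID4 and LSAMP in the lower left.

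The unnamed transcripts below, 2 per direction, had the largest changes among members with a signal of at least 100 and no overlap. XM_040683223.2 was 12.9, 14.5, 17.1 and 18.6 in LPS and 235, 230.4, 153 and 176 in LPS + PB1, and XM_046933300.1 was 69.5, 77.7, 63.04 and 50.2 in LPS and 627, 607, 416 and 391 in LPS + PB1. XM_040677656.2 was 188, 199, 92.6 and 100.2 in LPS and 4.14, 5.28, 2.21 and 1.70 in LPS + PB1, and XM_040660870.2 was 118, 107, 104 and 97.4 in LPS and 11.01, 13.4, 7.98 and 8.14 in LPS + PB1. In each the groups were far apart in both replicate pairs. For the first of these transcripts the log2 difference was 4.09 in replicates 1 and 2 and 3.20 in replicates 3 and 4 (limma adjusted p for the difference between pairs = 0.00256). By chromosome class, the median log2 difference was -0.02 over 579 members on chromosomes 1 to 5 and Z, -0.04 over 186 on chromosomes 6 to 10 and 0.14 over 425 on chromosomes 11 and above. The last value was 0.13 in each replicate pair and -0.02 in PB1 against CTR, and the difference between the classes was not tested.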

How the data were processed

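Total RNA of HD11 cells was sequenced by the authors as single reads on an Illumina instrument, aligned to GRCg7b with Hisat2 and counted per gene, by the study's methods, with Htseq-count; the rows of the table are transcript accessions. The deposited signal is not a raw count: by its values, every library counts upward in its own step (3.11 to 5.19 in these libraries), and a value is the rounded-down product of that step and the reads plus 1. At least 99.97% of the values of each library lay on its step. The totals the authors deposited were 13748060 to 22273935 for the 8 libraries.

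The signal was scaled to 1e+06 per library after TMM normalization and keeps the added read. Transcripts with at least 10 reads, at the median depth, in 4 libraries and 15 in all were tested on the log2 scale with limma 3.58.1 (R 4.3.3; lmFit and eBayes with a trend) and adjusted over all of them. Calls needed a fold of 1.5 or more and an adjusted p no higher than 0.05. Replicate pairs and PB1 against CTR were fitted in the same way, and interactions with a product term. The interactions were judged by the adjusted p alone, with no fold limit. A group with 3 reads or fewer in every library was taken as at the floor. Such limits cover counting error only. Figures were drawn with matplotlib 3.10.9 in Python 3.11.15.

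Symbols and coordinates came from the RefSeq annotation of GRCg7b, by accession. Of 6492 transcripts 1697 matched. Of the listed genes only those matched were read, and overlapping genes cannot be told apart, since strand was not stated. The text gives the 10 largest changes in each direction with a signal of at least 100 and no overlap, the 3 largest called members and the most abundant uncalled member of each list, the 2 largest unnamed ones, the genes the study names, the 3 smallest interaction p-values and the 5 highest genes. Other list members were named after their values were seen. Members, lists and tests were chosen with earlier results of these data known. Some named genes are not reported here. Promoter sequence was not analysed here.

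Replicate numbers are those of the labels. Deviations of same-numbered LPS and LPS + PB1 libraries from their group means had correlations of 0.49 to 0.60 over transcripts. Libraries of other numbers in the same pair had 0.48 to 0.58, and a library correlated best with its own number in 2 of 4. Libraries of different pairs had at most -0.49. Deviations from a group mean cancel out within the group, so these negative values follow from the positive ones and add nothing to them. The positive values link the replicate pairs of the groups and do not link single numbers. The alternatives were RLE size factors, no filter, another membership rule, a pseudocount of 1, no fold limit, the replicate number as a block, the replicate pair as a term, all 16 libraries, pair means, a robust fit and each library left out.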

Additional observations from a re-analysis of the deposited data

Results flagged for a closer look

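Of 184 groups of 4 libraries examined among the named genes, 4 had a library far from the others. The cutoff passes about 1 in 20 groups of 4 independent normal values. Libraries that stand apart in pairs do not meet that condition, so that rate is no guide here. In LPS, EIF1AX was 0.487 in replicate 2 and 0.206 to 0.230 in the others, all within the floor. HBA1, haemoglobin alpha, was 74.9 in LPS replicate 3 and 0.206 to 0.918 in the others. In LPS + PB1 it was 0.224, 73.9, 302 and 91.2, and its log2 difference of 4.29 ± 2.51 (SE) was not called (limma adjusted p = 0.221). TIMP3 was 3164 in LPS replicate 1 and 3318 to 3349 in the others. GNAI1, a G-protein subunit, was 59.6 in LPS + PB1 replicate 3 and 65.1 to 66.1 in the others.

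The PB1 effect with LPS minus that without LPS was 5.73 log2 units for ID3, 4.71 for UCHL1 and 4.81 for CCN2 (limma adjusted p of the interaction 2.06e-12, 4.47e-11 and 8.04e-12), the smallest p-values among named members. The effect in replicates 3 and 4 minus that in replicates 1 and 2 was -1.74 for TNFRSF11B, -1.81 for EGR1 and 1.62 for CLU (limma adjusted p 1.42e-07, 1.68e-07 and 1.42e-07). The p-values for the difference between pairs rest on the spread between libraries of the same pair, which may be technical. The part of the replicate pair in these values was not tested beyond that difference.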

How the results depend on the processing

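No named gene changed direction while called under any alternative. The count of 700 called members was 644 to 698 with 1 library left out, 699 with RLE size factors, 691 with no filter on low values, 685 with a pseudocount of 1, 696 with a robust spread and 649 when members were chosen by the mean over 8 libraries. It moved to 1349 (690 higher, 659 lower) with no limit on the fold change, which then added ATP5B, HOXC10, IGFBP4, IL6, SFRP1 and TXNRD1 to the named calls. It moved to 130 (41 higher, 89 lower) on the means of replicate pairs, where 24 of the 64 named calls were kept; that fit has 2 samples a group. With the replicate number as a block 797 members were called, with the replicate pair as a term 803 and with all 16 libraries 754, and the block changed no named call. NFKBIZ fell below the fold limit with RLE size factors and with the pseudocount, at a log2 difference of -0.56 and -0.57, and ACTB lost its call with no filter (limma adjusted p = 0.0647). RLE size factors gave 862 members in replicates 1 and 2, 868 in replicates 3 and 4, 344 for the difference between pairs and 1806 for that with and without LPS; with no filter the last 2 were 274 and 1780. The count tests planned as alternatives on recovered reads were left out, since the deposited values are a scaled signal that was rounded down. Changes of low transcripts are understated by the read added to each value.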

Other observations

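Further genes with a symbol changed strongly but stood in no list, and were chosen after their values were seen. Among those that fell, BCHE, butyrylcholinesterase, was 12.6, 13.7, 32.6 and 33.97 in LPS and 0.224, 0.669, 0.872 and 1.25 in LPS + PB1. The selenium transporter SELENOP1 was 84.5, 70.7, 88.6 and 87.6 in LPS and 6.59, 9.66, 17.4 and 25.3 in LPS + PB1, and CLEC3B, tetranectin, a plasminogen-binding protein, was 519, 612, 163 and 151 in LPS and 84.4, 80.6, 69.6 and 61.6 in LPS + PB1. PLPP3, a lipid phosphatase of the cell surface, fell by a log2 difference of -1.88 ± 0.15 (SE) from 2555, and SEMA3C, a secreted guidance protein, by -1.46 ± 0.23 (SE) from 1276. Among those that rose, ANKRD1, a nuclear and sarcomeric ankyrin protein, was 15.2, 16.95, 12.2 and 11.7 in LPS and 94.7, 104, 76.7 and 78.8 in LPS + PB1, and MAB21L1, a factor of eye development, was 19.97, 16.5, 9.59 and 11.7 in LPS and 91.3, 94.2, 83.2 and 80.9 in LPS + PB1. PCDH10, a protocadherin, rose by 2.51 ± 0.23 (SE) and DPYSL4, a neuronal cytoskeletal regulator, by 3.19 ± 0.41 (SE). In all of these the groups did not overlap. Without LPS, ANKRD1, PCDH10 and DPYSL4 had log2 differences of -2.56, -4.97 and -3.26 after PB1, opposite in sign to those with LPS, and CLEC3B had 3.67.

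SEPTIN5, a cytoskeletal GTPase gene on chromosome 15, was the only gene with a symbol that had more than 1 tested transcript. Its transcripts moved apart. One transcript had a signal of 53.3, 54.2, 48.6 and 42.6 in LPS and 23.7, 26.1, 29.8 and 26.6 in LPS + PB1. The other had 26.2, 32.7, 35.2 and 30.7 in LPS and 63.4, 57.7, 58.4 and 49.1 in LPS + PB1. Both were called, at log2 differences of -0.90 and 0.88, with no overlap between groups. Without LPS both were higher with PB1, at 0.82 and 0.82. How reads shared by the transcripts were assigned is not given in the sources used here.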
